A study of Mus musculus with 6 samples.

Results

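Dbp, Tef, Hlf and Nfil3 are the clock output factors of the PAR bZIP family and its opponent, and their mRNA was measured in the hypothalamus of obese mice given GSK-J4 or vehicle. All probes whose gene name in the scanner files was 1 of these 4 symbols were taken, without regard to their signal, which gave 4 of 37074 gene names and 9 of 56605 probes, 2 for Dbp, 4 for Tef, 1 for Hlf and 2 for Nfil3. The animals were male C57BL/6J DIO mice, that is, mice with obesity induced by a high-fat diet (60 kcal% fat for 16 weeks, started at 6 weeks of age). The mice of 3 arrays received GSK-J4, a small molecule that inhibits the demethylases of H3k27me3 such as Kdm6a, at 30 mg/kg, and those of the other 3 received vehicle only. The hypothalamus was taken on day 4 by the description of the arrays and at ZT 6 h, which is 6 h after lights on, so that all values stand for a single time of day. The methods of the study describe a longer course of GSK-J4 and do not give the day of the arrays, so the length of treatment behind the values is not settled. Each RNA sample was hybridized to 1 array of 60-base probes in 1 colour. The labels number the arrays of a group from 1 to 3, and the design text speaks of independent experiments, each with another mouse.

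The PAR bZIP factors DBP, TEF and HLF are transcriptional activators that bind as dimers to the D-box, a short element rich in A and T, and they carry the rhythm of the core clock to genes of metabolism, detoxification and neurotransmitter supply. Dbp itself is switched on by CLOCK and BMAL1 (the product of Arntl) through E-boxes and swings widely over the day in most tissues. NFIL3, also called E4BP4, lacks the PAR domain, binds the same D-box as a repressor, and is held down by REV-ERB proteins through RORE sites, so that its rhythm runs roughly opposite to that of Dbp. In the brain TEF and HLF also take part in keeping pyridoxal phosphate and neurotransmitters at a normal level, and mice that lack all of these activators suffer from seizures.

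The arrays differed in several ways that touch the values below. The 3 vehicle arrays lay on slide 1 and were scanned together, and the 3 GSK-J4 arrays lay on slide 2, so slide and treatment cannot be told apart. The GSK-J4 arrays were dimmer, with 57.7% to 58.7% of probes passing the scanner's test of signal over background against 62.8% to 63.6% for vehicle, and a 75th percentile of intensity of 406 to 461 against 787 to 916. Vehicle replicate 1 stood apart in choroid plexus markers, of which all 7 were measured, with a mean log2 signal of 13.02 against 7.53 to 8.91 on the other 5 arrays. Of 12 markers of hypothalamic neurons, 9 were kept, among them Npy and Pomc, whereas Pmch, Avp and Trh were not. Agrp was kept but dim (4.74 on vehicle and 4.84 on GSK-J4 arrays), and over background on 2 of 3 GSK-J4 arrays. Of 6 markers of the suprachiasmatic nucleus, the seat of the central clock, 5 were kept and Six6 was not. Prok2, among those kept, was over background on 1 of 3 GSK-J4 arrays. Fewer cells of a type and less RNA per cell cannot be told apart in bulk tissue such as this.

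The 9 probes did not all read the same part of their transcripts, and the 4 Tef probes gave different results, so their sequences are shown first. Coordinates of the probes are those of the scanner files on mm9, and each probe is written 5′ to 3′ in the sense of the mRNA. The Tef probe A_52_P173309 (chr15:81651816-81653921, plus strand) covered 2106 bases of the genome with 60 bases of sequence, so it crossed a splice junction. Its bases encode the stretch that leads into the DNA-binding basic region of TEF. The other 8 probes each covered 60 bases of the genome, and 5 of all 9 held AATAAA or ATTAAA, the usual polyadenylation signals, which 14.2% of the 34443 kept probes held. For 5 probes, 30 bases are given, with these letters in capitals where they occur, to show which probes hold them. A match does not show that a transcript ends there.

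Tef A_52_P173309, whole probe: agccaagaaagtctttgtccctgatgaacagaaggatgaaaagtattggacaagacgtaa
Tef A_55_P2912692, bases 31 to 60, chr15:81647233-81647292: aacattcatacacatgaagtaAATAAAcgg
Tef A_52_P485573, bases 1 to 30, chr15:81656928-81656987: aaattttctagaaaaaggcaaagatgattt
Tef A_55_P1979893, bases 31 to 60, chr15:81657221-81657280: aatgtatccttttcaaacaaaATTAAAtat
Dbp A_55_P2032079, bases 31 to 60, chr7:52965461-52965520: caacacaatcctgAATAAAtcttgagaacc
Nfil3 A_52_P500027, bases 31 to 60, chr13:53062585-53062644: tgttgccagtttcAATAAAggattggtggc

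The coordinates beside the 30-base stretches are those of the whole 60-base probe. The junction probe and A_52_P485573 were designed on the same RefSeq transcript of Tef, at positions 719 and 3785 of it, and A_55_P1979893 on the other RefSeq transcript, at position 4171. The Tef probe A_55_P2912692 was designed on an Ensembl transcript and lay upstream of the junction probe on the genome. Whether its site belongs to an exon of the RefSeq transcripts was not examined. A_55_P1979893 lies just downstream of A_52_P485573 on the genome, and which transcripts each of these probes can read was not examined.

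Over the 9 probes there was 1 call, a higher signal of the Tef junction probe in the GSK-J4 group, and no call for Dbp, Hlf or Nfil3, while 4 of the 9 had an unadjusted p of at most 0.05, as had 36.5% of all kept probes. A call here is an adjusted p of at most 0.05 in limma, with Benjamini-Hochberg adjustment over all 34443 kept probes. The 1 of 9 probes called (11.1%) stands beside 16.8% of all kept probes called, 8.38% higher and 8.4% lower. The groups did not overlap for 4 of the 9 probes, or 44.4%, against 45.6% of all kept probes. Differences were positive for 6 probes and negative for 3, with a median of 0.06 on the log2 scale against 0.02 for all kept probes. The median absolute difference was 0.27 against 0.25. By these counts the 9 probes did not differ more often between the groups than the array as a whole. All 9 passed the filter on dim probes, gave signal well above background on each of the 6 arrays and rested on 1 spot each, with 0 flagged as outliers.

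**Figure D1:**
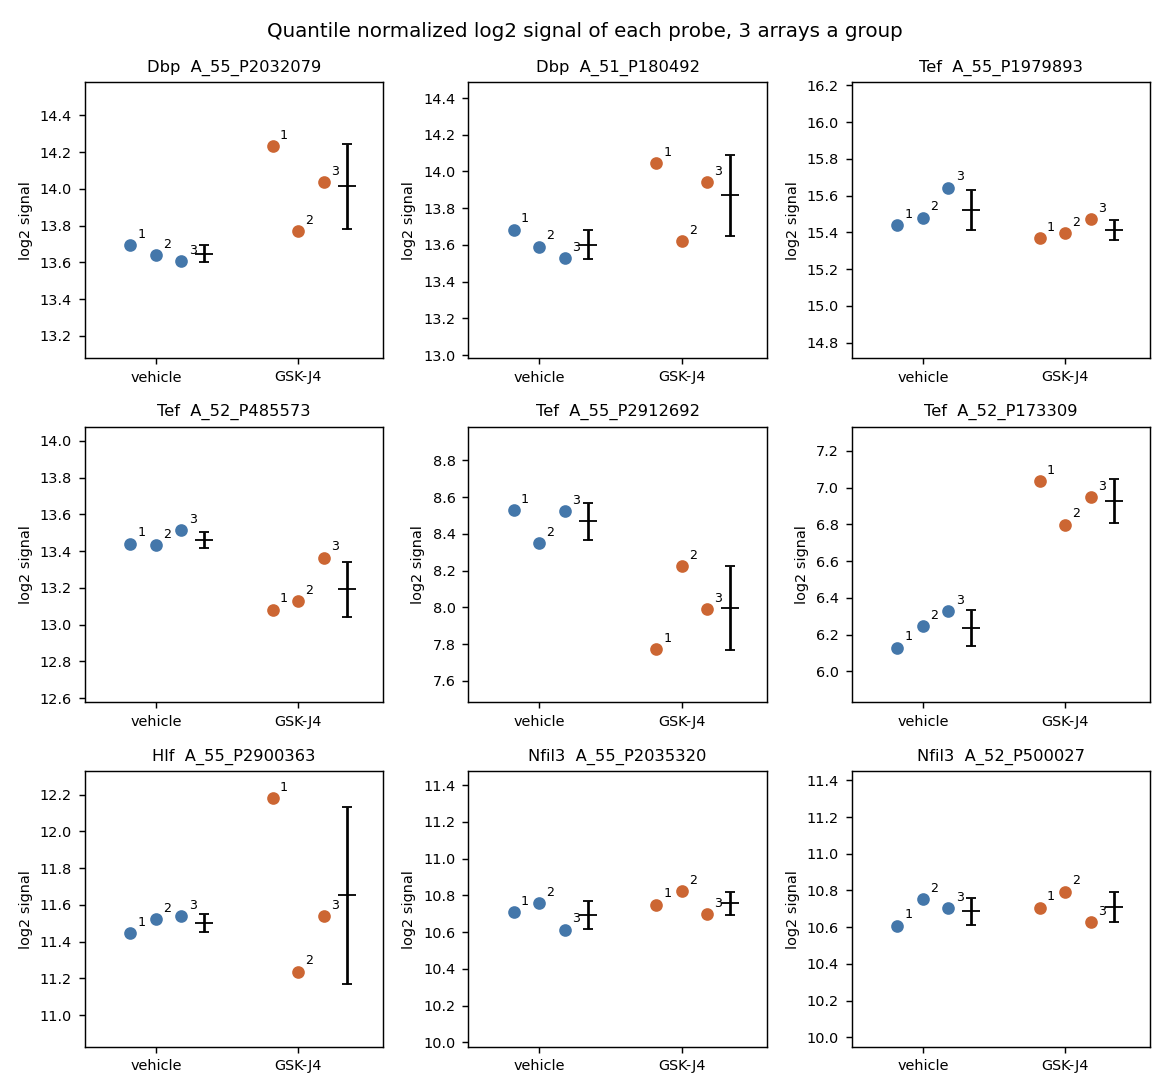
Quantile normalized log2 signal of each of the 9 probes, with 1 point per array, numbered by replicate, and the mean ± SD of each group of 3 as a bar. The vertical range is the same width in every panel, and the groups do not overlap for 1 Dbp probe and 3 Tef probes.

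Dbp, the most rhythmic of the activators, had somewhat higher signal in the GSK-J4 group on both of its probes, and neither difference passed the test. For the probe A_55_P2032079 the log2 signals were 14.23, 13.77 and 14.04 on GSK-J4 arrays 1 to 3 and 13.70, 13.64 and 13.61 on vehicle arrays 1 to 3. All 3 GSK-J4 arrays lay above all vehicle arrays, and GSK-J4 replicate 2 lay close to them. The means were 14.01 ± 0.23 and 13.65 ± 0.05 (SD, n = 3 each), a difference of 0.37 ± 0.13 (SE) or 1.29-fold, with an adjusted p in limma of 0.101 and a 95% interval from 0.05 to 0.68. In the exact permutation test, two-sided over the 20 orders of 3 against 3, its p was 0.1, the smallest the design allows.

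The other Dbp probe, A_51_P180492 (chr7:52965265-52965324), lay just upstream in the same transcript. It read 14.05, 13.62 and 13.94 on the GSK-J4 arrays and 13.68, 13.59 and 13.53 on the vehicle arrays. Here GSK-J4 replicate 2 fell among the vehicle values, so the groups overlapped. The difference was 0.27 ± 0.13, with a limma adjusted p of 0.188 and an interval from -0.05 to 0.59. The GSK-J4 arrays fell in the same order for both probes, with replicate 1 highest and replicate 2 lowest. Without GSK-J4 replicate 2 the probe A_55_P2032079 reached an adjusted p of 0.0453 in limma at a difference of 0.48, and without replicate 1 its difference was 0.26.

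Markers of hypothalamic neurons had positive differences as well. Their mean log2 signal over the 9 kept genes was 8.56 to 8.83 on the GSK-J4 arrays and 8.21 to 8.37 on the vehicle arrays. All 9 differences were positive and 2 of 9 were called higher, against 8.59% of all genes. The 2 called, Npy and Pomc, have probes with a GC content of 50% and 55%. All kept probes of these GC contents had median differences of 0.19 and 0.24. Within 2.5 percentage points of 55%, 21.0% of kept probes were called higher. The probes of Crh and Sst, at 35%, had differences of 0.41 and 0.08. The 5 kept markers of the suprachiasmatic nucleus averaged 7.01 to 7.49 and 6.60 to 7.07. Their mean was highest on GSK-J4 replicate 1, where Dbp was also highest. By gene, Vip, Rgs16 and the dim Prok2 were highest on that array, Nms on GSK-J4 replicate 2 and Lhx1 on vehicle replicate 2. The part of these cells in the Dbp signal was not tested.

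Tef was the gene whose probes disagreed. The junction probe A_52_P173309 read 7.04, 6.80 and 6.95 on the GSK-J4 arrays and 6.13, 6.25 and 6.33 on the vehicle arrays. The lowest GSK-J4 value lay above the highest vehicle value by more than the range of either group. The means were 6.93 ± 0.12 and 6.23 ± 0.10 (SD, n = 3 each), and the difference was 0.69 ± 0.10 (SE), or 1.62-fold, with an adjusted p in limma of 0.0174 and a 95% interval from 0.45 to 0.93. Of all kept probes, 12.0% had a larger absolute difference.

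The 3 other Tef probes had lower means in the GSK-J4 group, and none of them was called. The Ensembl probe A_55_P2912692 read 7.77, 8.23 and 7.99 on the GSK-J4 arrays and 8.53, 8.35 and 8.53 on the vehicle arrays, a difference of -0.47 ± 0.13 with a limma adjusted p of 0.0633. The probe A_52_P485573 read 13.08, 13.13 and 13.37 against 13.44, 13.43 and 13.51, a difference of -0.27 ± 0.10 with an adjusted p of 0.108. In both of these the groups did not overlap. The probe A_55_P1979893, designed on the other RefSeq transcript, read 15.37, 15.40 and 15.47 against 15.44, 15.48 and 15.64. Its groups overlapped, and its difference of -0.11 ± 0.08 had an adjusted p of 0.39 and turned to 0.35 (adjusted p 0.043 in limma) when arrays were scaled to the 75th percentile.

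The differences between probes of a gene were tested within arrays, each probe being set against the brightest probe of its gene. The difference of the junction probe exceeded that of A_55_P1979893 by 0.80 on the log2 scale, with an exact permutation p of 0.1, which was 0.167 after adjustment over the 5 pairs tested. The design can give no smaller value for a single pair. Over 19 other settings this gap lay between 0.21 and 0.86 and was never negative. Those that change only the test, block, filter or threshold left it at 0.80 and could not alter its sign. For the Ensembl probe the gap was -0.36 (exact permutation p 0.1, adjusted 0.167) and for A_52_P485573 it was -0.16 (exact permutation p 0.2, adjusted 0.25). For Dbp and Nfil3 the corresponding gaps were -0.10 and -0.04. Averaged over its 4 probes, Tef differed by -0.04 with a limma adjusted p of 0.733, an average over values of opposite sign.

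The call of the junction probe was lost when any of the 3 vehicle arrays was left out, with adjusted p of 0.0638 without replicate 1, 0.0712 without replicate 2 and 0.0687 without replicate 3, at differences of 0.64 to 0.74. It was also lost with the methods' t-test after Benjamini-Hochberg (adjusted p 0.0758), and normexp background correction gave 0.43 in place of 0.69 (limma adjusted p 0.017). The probe is dim, with an unnormalized intensity of 79.5 to 92.6 on the GSK-J4 arrays and 97.8 to 118 on the vehicle arrays.

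Hlf, the hepatic leukemia factor, which is also expressed in neurons, had 1 probe, A_55_P2900363 (chr11:90201236-90201295), and no difference that stood out from its spread. It read 12.18, 11.24 and 11.54 on the GSK-J4 arrays and 11.44, 11.52 and 11.54 on the vehicle arrays. The vehicle arrays lay close together, whereas GSK-J4 replicate 1 lay far above and replicate 2 below all of them. The means were 11.65 ± 0.48 and 11.50 ± 0.05, the difference 0.15 ± 0.24 (SE, limma adjusted p 0.681), and the interval ran from -0.44 to 0.74. Without GSK-J4 replicate 1 the difference was -0.12. The SD within groups, 0.34, was at the 83.8th percentile of kept probes, whose median was 0.16.

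Nfil3, the repressor that competes with the activators for the D-box, had the steadiest values of the 4 genes. The probe A_55_P2035320 (chr13:53062578-53062637) read 10.75, 10.82 and 10.70 on the GSK-J4 arrays and 10.71, 10.76 and 10.61 on the vehicle arrays. The probe A_52_P500027 read 10.71, 10.79 and 10.63 against 10.61, 10.75 and 10.70. These probes share 53 of 60 bases, so they are close to repeat readings of a single site. Their differences were 0.06 ± 0.08 (limma adjusted p 0.583) and 0.02 ± 0.08 (adjusted p 0.866). The intervals, from -0.13 to 0.26 and from -0.18 to 0.22, were narrower than those of the other 3 genes. The SD within groups of the first was 0.07, at the 13.6th percentile of kept probes.

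Because the activators and NFIL3 compete, their difference within an array was also taken, from the brightest probe of each gene. The mean log2 signal of Dbp, Tef and Hlf minus that of Nfil3 was 2.93 ± 0.27 on the GSK-J4 arrays and 2.86 ± 0.10 on the vehicle arrays, a shift of 0.07 that was smaller than either SD. The level of this quantity carries the brightness of the probes and has no meaning of its own. Dbp and Hlf had r = 0.734 over the 6 arrays and 0.914 for deviations within groups. On the GSK-J4 arrays both were highest on replicate 1 and lowest on replicate 2. On vehicle arrays 1 to 3 they ran opposite, with 13.70, 13.64 and 13.61 for Dbp and 11.44, 11.52 and 11.54 for Hlf. Tef and Nfil3 ran opposite over the 6 arrays, with r of -0.831. These are descriptions of 6 arrays that share a normalization.

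**Figure D2:**
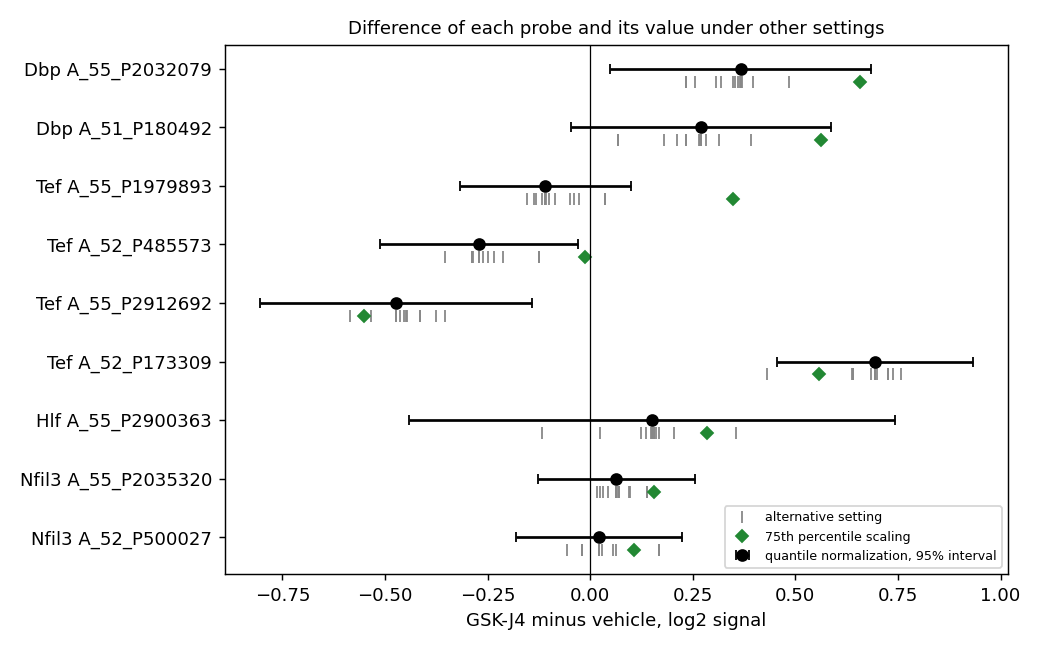
GSK-J4 minus vehicle difference of log2 signal for each probe, with its 95% interval in limma (black), its value with arrays scaled to the 75th percentile (green diamonds) and its value under the other settings (grey ticks). The Tef junction probe A_52_P173309 stays above 0 at every setting. The probes Tef A_55_P1979893, Hlf A_55_P2900363 and Nfil3 A_52_P500027 change side at some settings. Settings that change only the test, block, filter or threshold leave a difference as it is.

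The unequal brightness of the slides bears on every value above. Before normalization, the 75th percentile of intensity differed by -0.92 on the log2 scale between the GSK-J4 and the vehicle arrays. The mean log2 intensity of all 9 probes was lower on the GSK-J4 arrays too, with differences of -0.27 and -0.36 for Dbp, -0.64 for Hlf and -0.77 and -0.82 for Nfil3. For Tef they were -0.36 (junction probe), -0.57 (A_55_P1979893), -0.93 (A_52_P485573) and -1.47 (A_55_P2912692). A positive difference after quantile normalization therefore stands for an intensity that was less far below vehicle than that of probes of like brightness. The array as a whole is not the measure. A_55_P1979893, at -0.57 against -0.92 for the 75th percentile, had a difference of -0.11 after quantile normalization.

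With arrays scaled to the 75th percentile in place of quantile normalization, 4 of the 9 probes were called higher and 1 lower. Both Dbp probes (0.66 and 0.56) and the Tef probes A_55_P1979893 (0.35) and A_52_P173309 (0.56) were called higher, and the Ensembl Tef probe (-0.55) lower. Under that scaling, the difference between the groups varied with brightness over the whole array. The median difference of the 1000 kept probes nearest in mean signal, a comparison chosen after these values were seen, was 0.31 and 0.30 at the Dbp probes, 0.47 at A_55_P1979893 and -0.11 at the junction probe. Against these neighbours the Dbp and junction probes still lay above, and A_55_P1979893 lay below.

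Base composition moved with the differences as well. Kept probes within 2.5 percentage points of the GC content of the Dbp probes (48.3% and 55%) had median differences of 0.19 and 0.23, and those near the GC content of Nfil3 A_52_P500027, Tef A_55_P1979893 and Tef A_52_P485573 (35%) had -0.13. The junction probe has a GC content of 40%, where the median was -0.02, 5.10% of probes were called higher and 9.47% lower. After a correction for GC content within each array, the Dbp differences were 0.23 and 0.07, those of the latter Tef probes 0.04 and -0.13, and those of Nfil3 0.14 and 0.17. The Tef junction probe kept a difference of 0.73 with a limma adjusted p of 0.0226.

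**Figure D3:**
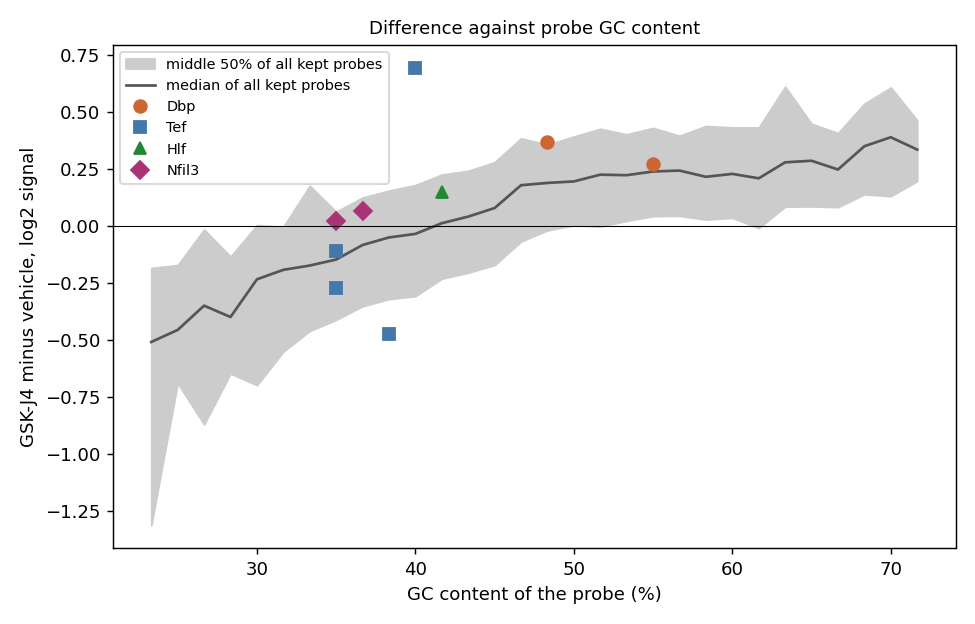
GSK-J4 minus vehicle difference of log2 signal of the 9 probes against the GC content of the probe in percent, over the median (line) and the middle 50% (band) of all kept probes. The Dbp and Hlf probes lie above the line, the Nfil3 probes as well, and the Tef junction probe at 40% lies far above the band.

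The promoters of these genes were compared for the letters of clock elements, as background to the list of upstream genes. RefSeq sequence (GRCm38.p6) from 250 bases before to 50 bases after each start was at hand for all 4 genes, with 2 starts for Tef. Motifs were searched on both strands as the E-box CACGTG, found in 7.15% of 32851 promoters, the CRE TGACGTCA in 1.79%, the RORE core AGGTCA in 16.3%, and the D-box as TTATGTAA or TTACGTAA in 1.06% or more loosely as TTANNTAA, which contains these, in 6%. Both Tef promoters hold 1 E-box, the first of them also 1 loose D-box, the Hlf promoter 1 CRE and the Nfil3 promoter 1 RORE core. The Dbp window holds none of these letters, and sequence outside the windows was not searched. The stretches around the Tef E-boxes, with the E-box in capitals, are as follows.

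Tef start 1, chr15:81802519-81802578, plus strand: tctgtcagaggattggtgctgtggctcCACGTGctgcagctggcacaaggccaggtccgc
Tef start 2, chr15:81811249-81811308, plus strand: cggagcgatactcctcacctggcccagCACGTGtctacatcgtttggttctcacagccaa

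These E-boxes lie 127 and 138 bases before their starts. A match of letters does not show that a factor binds there.

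Of the 16 genes of the clock loop that drives or opposes the 4 factors, all were kept. By the brightest probe of each gene, 1 was called higher (Cry1) and 2 lower (Per2 and Per3), with 9 positive and 7 negative differences and a median of 0.01, against 16.1% called (8.59% higher and 7.56% lower) and a median of 0.04 over 22117 genes. The loop thus did not move in a single direction.

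Cry1, a repressor of CLOCK and BMAL1, read 6.51, 6.38 and 6.49 on the GSK-J4 arrays and 5.86, 5.94 and 5.75 on the vehicle arrays, a difference of 0.61 ± 0.08 with a limma adjusted p of 0.0173. This probe, A_55_P2880103, is dim, with a vehicle mean of 5.85 against 6.23 for the Tef junction probe. Its GC content is 60%, where all kept probes had a median difference of 0.23. Its difference was 0.36 after GC correction (limma adjusted p 0.045) and 0.34 with normexp (limma adjusted p 0.0211). The other Cry1 probe, A_52_P420500, had a fitted difference of opposite sign, -0.46 with a limma adjusted p of 0.432, which is no fold because it was over background on 3 of 3 vehicle and 0 of 3 GSK-J4 arrays. Per2 and Per3, which belong to the same repressor complex, differed by -0.33 (adjusted p 0.0421) and -0.37 (adjusted p 0.0422). All 3 Per3 probes were called lower, by -0.81 and -0.69 for the other 2, whereas the other Per2 probe had a difference of 0.11 with an adjusted p of 0.599. Cry1, like the Tef junction probe, lost its call when any vehicle array was left out, with limma adjusted p of 0.0648 without replicate 1, 0.067 without replicate 2 and 0.0713 without replicate 3. Per3 lost it without any single array of the 6 (adjusted p 0.0559 to 0.126), and Per2 without any but GSK-J4 replicate 3 (adjusted p 0.0895 to 0.121). The call of Per2 was also lost under 75th percentile scaling (-0.20, adjusted p 0.109) and GC correction (-0.19, adjusted p 0.185).

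Among the direct drivers of Dbp, Arntl had a difference of -0.43 (limma adjusted p 0.0661) and its partner Npas2 one of 0.59 (adjusted p 0.0865), while Clock had 0.02. Rora, which activates RORE genes such as Nfil3, had 0.42 (adjusted p 0.179), and Nr1d1, which encodes the REV-ERB alpha that represses them, had 0.30 (adjusted p 0.0584). Bhlhe41, an E-box repressor, had -0.35 (adjusted p 0.0743) on its brightest probe and 0.38 (adjusted p 0.253) on the other. None of these passed the test. Taking any probe of a gene, 1 of 16 was called higher and 4 lower, against 12.1% and 11.5% of all genes. The added ones were Clock (-0.81, adjusted p 0.0177) and Rora (-1.32, adjusted p 0.0384), whose other probes gave positive values. The Rora probe was over background on 2 of 3 GSK-J4 arrays and passed the filter only through the vehicle group, where it was higher, so its call is no support for the count. Of the 11 clock loop genes with more than 1 kept probe, 6 had probes of opposite sign (Arntl, Bhlhe41, Clock, Cry1, Per2 and Rora), as had 47.4% of all 7909 such genes, and Tef was 1 of 3 among the 4 factors.

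Most genes known as targets of these factors in liver, kidney, brain or pituitary did not pass the filter on dim probes in this tissue. Of 18 such genes, 7 were kept, and 11 were not, among them Alb, Cyp7a1, Cyp2a5 and Cyp4a14, which are liver genes. By the brightest probe, 1 of 7 was called higher (Ppara) and none lower, with a median difference of 0.10, against 16.1% of all genes called. At an unadjusted limma p of at most 0.05, 1 was higher and 0 lower, against 20.1% and 15.5% of all genes. When any probe of a gene was counted, 2 of 7 were called higher and 0 lower, against 12.1% and 11.5%. The added gene was Pdxk, by a probe with a GC content of 48.3%. Within 2.5 percentage points of that content, 15.7% of kept probes were called higher. Gys2, among the 7, was over background on 1 of 3 GSK-J4 arrays and was kept only through the vehicle group.

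Ppara, the nuclear receptor for fatty acids, read 8.97, 8.81 and 8.84 on the GSK-J4 arrays and 8.45, 8.30 and 8.30 on the vehicle arrays, and the groups did not overlap. Its difference was 0.53 ± 0.08 with a limma adjusted p of 0.0217, and its other probe had 0.29 with an adjusted p of 0.0752. This call too was lost without any of the vehicle arrays, with limma adjusted p of 0.0618 without replicate 1, 0.0836 without replicate 2 and 0.0826 without replicate 3.

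Pdxk encodes pyridoxal kinase, the enzyme through which the PAR bZIP factors act on neurotransmitters in the brain. Its brightest probe had a difference of 0.15 (limma adjusted p 0.302), and its other probe was called higher with 0.42 (adjusted p 0.0228). Usp2, a deubiquitinase with a daily rhythm, had 0.39 (limma adjusted p 0.194), and 0.13 (adjusted p 0.384) on its other probe. Alas1, which begins haem synthesis, had -0.12 (adjusted p 0.358). Its other probes had -0.22 (limma adjusted p 0.475) and -0.34 (adjusted p 0.0614). Por, the reductase that supplies cytochrome P450 enzymes, had -0.39 (limma adjusted p 0.536). The 0.39 of Usp2 became 0.19 without vehicle replicate 3, which read 10.78 against 11.38 and 11.41 on the other vehicle arrays. The value for Por rested on GSK-J4 replicate 3, at 11.23 against 12.67 and 12.61 on the other GSK-J4 arrays.

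The C/EBP proteins and CHOP (Ddit3) are bZIP factors near to this family in what they bind. Cebpz stands in the list by its name only and does not encode a bZIP factor. Of 7 genes, 6 were kept and none was called, with 0 higher and 0 lower in limma, and 2 higher and 0 lower at an unadjusted p of at most 0.05, against 20.1% and 15.5% of all genes. The median difference was 0.06. The largest were Ddit3, a gene of the ER stress response, with 0.27 (adjusted p 0.0793; 0.12 after GC correction, and 0.048 on its other probe), and Cebpa with 0.27 (adjusted p 0.0871). Cebpz had 0.20 and Cebpg had -0.17. For 3 of the 6, Ddit3, Cebpa and Cebpz, the groups did not overlap by the brightest probe, against 45.5% of all genes.

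**Figure D4:**
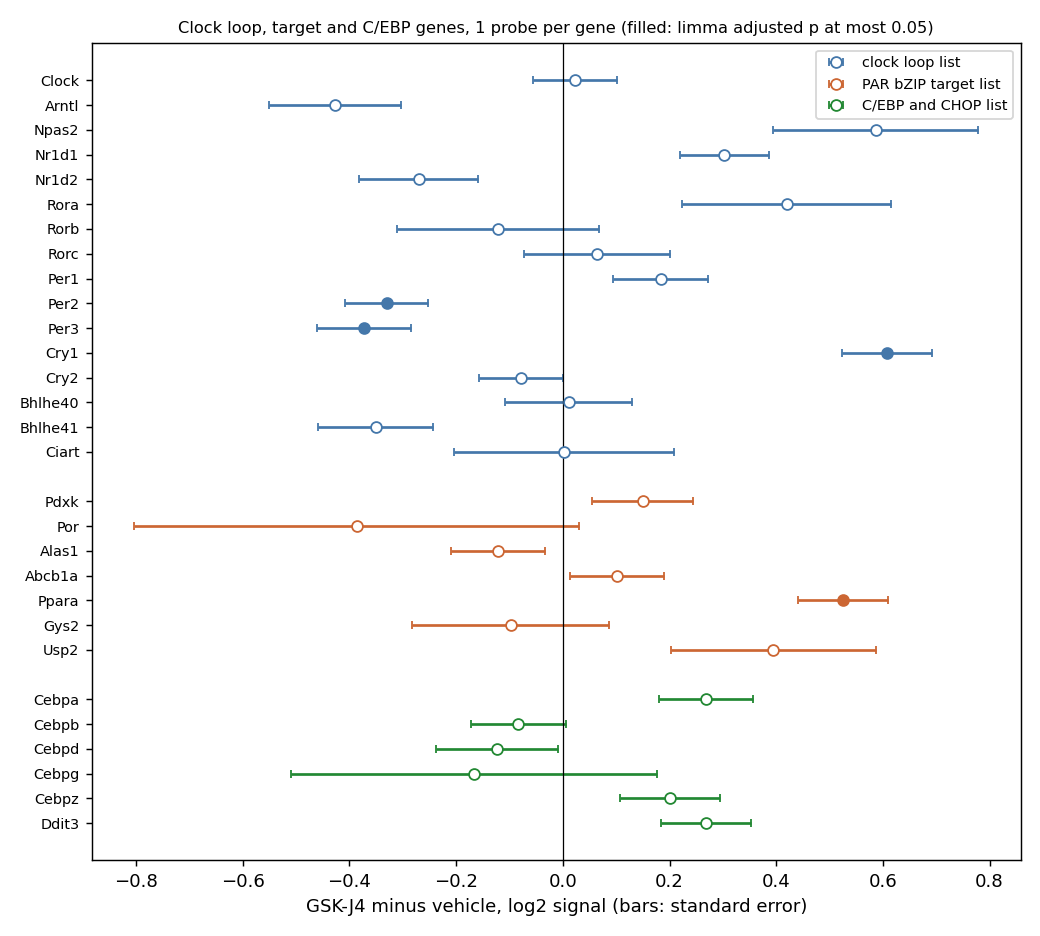
GSK-J4 minus vehicle difference of log2 signal for the genes of the clock loop, the target list and the C/EBP and CHOP list, by the brightest kept probe of each gene, with standard errors as bars. Filled points (Cry1, Per2, Per3 and Ppara) have a limma adjusted p of at most 0.05, and the points of each list lie on both sides of 0.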

How the data were processed

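RNA of the hypothalamus was measured on 6 Agilent arrays, 3 labelled GSK-J4 and 3 labelled vehicle. The authors deposited an intensity for each spot, corrected for background in Agilent Feature Extraction (10.7.1.1 per the labels), and a table of quantile normalized log2 values made in GeneSpring. Here the intensities were used and the deposited log2 table was an alternative. In that table the differences were 0.37 and 0.27 for Dbp (A_55_P2032079, A_51_P180492), -0.11, -0.27, -0.47 and 0.69 for Tef (A_55_P1979893, A_52_P485573, A_55_P2912692, A_52_P173309), 0.15 for Hlf, and 0.06 and 0.02 for Nfil3 (A_55_P2035320, A_52_P500027).

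Outlier spots were dropped, spots of a probe were averaged on the log2 scale, and the arrays were quantile normalized. A probe was kept (34443 of 56605) if every array of either group had it well above background. Groups were compared two-sided with lmFit and eBayes in limma 3.58.1 (R 4.3.3, Python 3.11.15), without covariates and with Benjamini-Hochberg adjustment over kept probes. The number of arrays limits the precision. The test was checked on simulated data. Over 20 runs with 34421 probes, 200 of them shifted by 1 (log2) between GSK-J4 and vehicle, it found 50.4% of these, and 5.53% of its calls were false. The simulated noise was independent from probe to probe, with no effect of slide, brightness or GC content. These shares therefore do not apply to calls that such effects could bring about in the real arrays.

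Named genes are every probe of the 4 genes, the called genes of each list with up to 4 others of largest absolute difference, and the 3 genes most correlated with each of the 4. Nr1d1, Clock and the genes given as examples were added after their values were seen. The 4 genes and the lists were chosen with earlier results of these data known. The alternatives were other scaling, background correction, filters, variance models and thresholds, the t-test of the methods, GC correction (lowess, span 0.3), the replicate number as a block, and leaving out each array. Slide was not fitted, since each slide holds 1 group.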

Additional observations from a re-analysis of the deposited data

How the results depend on the processing

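Called higher over all probes were 5036 with 75th percentile scaling (58.1% of calls, against 50% of the 2888 higher and 2893 lower calls above), 1805 without the filter on dim probes, 1556 with GC correction (43.7%), 1654 at a fold of 1.5 with unadjusted limma p (38%), and 1806 beside 1587 lower with 1 probe per gene. The methods' t-test gave 1142 higher and 1794 lower at that fold and unadjusted p, and 34 and 25 after Benjamini-Hochberg. Of the 9 probes, 75th percentile scaling called 4 higher and 1 lower, normexp 2 lower, and the adjusted t-test and 1 probe per gene 0 higher. Clock loop genes called higher were 3 with 75th percentile scaling. They were 2 with the filter on all 6 arrays, with the intensity trend and at the 1.5-fold limma threshold. They were 0 with the adjusted t-test and with GC correction, where the Cry1 probe A_52_P420500 became the brightest. Clock loop genes called lower were 4 with normexp, 1 with GC correction, and 0 without the filter, with either form of the t-test and at the 1.5-fold limma threshold. Target genes called higher were 2 with 75th percentile scaling and 0 with either form of the t-test and at the 1.5-fold limma threshold, and 75th percentile scaling called 1 C/EBP gene higher.

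Same-numbered arrays deviated together hardly at all (r = 0.0074, 0.026 and 0.082), and pairs of unlike number had r from -0.098 to 0.093. Whether arrays of the same number share an experiment cannot be told from these values. With the replicate block, alone or with GC correction, there were 0 calls, 0 higher and 0 lower, over all probes and in every list, and the Tef junction probe had limma adjusted p of 0.0808 and 0.101.

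When single arrays were left out, calls ranged from 2 to 2122 higher and 9 to 2443 lower over all probes, 0 to 2 higher and 0 to 1 lower among the 9, 0 to 2 higher and 0 to 1 lower in the clock loop, and 0 to 1 higher among targets. Without vehicle replicate 1, 2 or 3 all probes gave 2, 5 and 2 higher calls and 9, 23 and 17 lower, and the 9 probes 0.

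Some differences changed sign, none of them called above. Tef A_55_P1979893 was 0.35 with 75th percentile scaling and 0.036 with GC correction, alone or with the replicate block. Alas1 was 0.11 and 0.024 under the same settings. Nfil3 A_52_P500027 was -0.056 with normexp and ran from -0.020 to 0.063 when single arrays were left out. In the same way Hlf ran from -0.12 (without GSK-J4 replicate 1) to 0.36, Cebpg from -0.39 to 0.24 (without GSK-J4 replicate 2) and Por from -0.63 to 0.08 (without GSK-J4 replicate 3). The Tef junction probe stayed positive in all 19 settings, from 0.43 to 0.76, and was called in 13. Settings that change only the test, block, filter or threshold left its difference at 0.69 and could not alter its sign. The causes were not tested.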

Other observations

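The genes whose log2 signal followed each member most closely over the 6 arrays, among 20199 genes well above background on all arrays, differed from member to member. Each member was represented by its brightest probe, and the genes were ranked by Pearson's r. For Dbp they were Gm2449 (r = 0.9951), Ccl17 (0.9949) and a transcript named only by an Ensembl identifier (0.9937), and 264 genes had an r above 0.95. For Tef they were 4833420D23Rik (0.9943), Oscar (0.9933) and Qrich1 (0.9915), with 39 genes above 0.95. For Hlf they were Bend5 (0.9854), Gm13247 (0.9814) and Sstr2 (0.9804), with 27, and for Nfil3 Sowaha (0.9922), Prp2 (0.9875) and AK136349 (0.9866), with 16. None of these 12 genes was called between the groups, with limma adjusted p from 0.0655 to 0.808. Over 6 arrays that fall into 2 groups such correlations arise readily, and they are given as a description.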
